A study of Mus musculus with 6 samples.

Results

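Gene deserts are long stretches of the genome with no annotated gene. Here they were defined as autosomal sequence more than 100 kb from any annotated transcription start and outside every annotated gene span. CpG sites in them were examined in chemically induced pluripotent stem cells (C-iPSCs), iPSCs made with 4 transcription factors (4F-iPSCs) and mouse embryonic stem cells (mESCs). A CpG was taken as a gene desert CpG when it had at least 10 reads in each of the 3 cell types, counting both replicate libraries together, and under 10 other such CpGs within 100 bp. This rule used positions and read numbers, and no methylation value. It gave 16257 of the 1073684 autosomal CpGs that could be compared (1.51%), out of 1106981 compared CpGs in all. They lay in 1015 of 1329 gene deserts, which together spanned 166.309 Mb, or 6.94% of the autosomes.

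Methylation was measured by reduced representation bisulfite sequencing (RRBS) in 2 libraries of each cell type, 6 in all. C-iPSCs were derived from OG2 mouse embryonic fibroblasts (MEFs) with a cocktail of small molecules, and 4F-iPSCs from the same kind of fibroblasts with retroviral Oct4, Sox2, Klf4 and c-Myc, and both were collected at passages 5 to 10. By the study's methods, stage 2 of the chemical cocktail contained 5-Aza-2′-deoxycytidine, and its part in the levels was not tested. The mESCs were of the E14 line at passages 20 to 30. The study's methods name several mouse strains for the OG2 fibroblasts and no strain for E14. Cell type, derivation, genetic background and passage thus cannot be told apart in these comparisons. All cells were labelled male and were grown on mitomycin C-treated MEF feeders in medium with leukemia inhibitory factor, CHIR99021 and PD0325901, and the feeders were removed before collection, as the sample descriptions give it, whereas the study's methods name gelatin-coated plates alone. Whether replicates came from separate lines or cultures was not stated. Tests that treat libraries as replicates therefore measure only the spread between these libraries, which may be technical. Fisher's exact test, run on summed reads, covers counting error only.

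In mammalian cells DNA methyltransferases add a methyl group to the cytosine of CpG dinucleotides, and most CpGs outside promoters and other regulatory elements are methylated in somatic cells. Gene deserts hold few CpGs and many copies of transposable elements, whose CpGs are a main target of DNA methylation. Mouse pluripotent cells in medium with inhibitors of GSK3 and MEK lose much of their methylation. RRBS reads mainly CpG-rich fragments between sites of the enzyme MspI, which cuts at CCGG, and covers deserts thinly: 1.81% of the 922167 CpGs of the reference sequence in these deserts were compared, against 5.27% over the autosomes.

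To show what kind of sequence carries the results, 6 stretches are given from the GRCm38 reference (mm10), forward strand, 5′ to 3′, with the gene desert CpGs in capitals. They come from the leading run of each kind described below: 3 runs higher in one cell type than in another, a run that was lower in 4F-iPSCs, a run low in all libraries and a run high in all libraries. The 3 higher runs, of 539, 566 and 568 bases, are shown in part, as 300 bases with 11 of 17, 13 of 21 and 14 of 21 gene desert CpGs.
C-iPSCs above mESCs, chr1:102605405-102605704: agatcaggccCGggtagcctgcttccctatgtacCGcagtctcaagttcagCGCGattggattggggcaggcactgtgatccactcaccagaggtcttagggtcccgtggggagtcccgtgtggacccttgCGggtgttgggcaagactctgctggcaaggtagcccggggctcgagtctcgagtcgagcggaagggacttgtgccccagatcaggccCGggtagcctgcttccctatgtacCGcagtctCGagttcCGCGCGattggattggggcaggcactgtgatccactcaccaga
4F-iPSCs above mESCs, chr1:114134282-114134581: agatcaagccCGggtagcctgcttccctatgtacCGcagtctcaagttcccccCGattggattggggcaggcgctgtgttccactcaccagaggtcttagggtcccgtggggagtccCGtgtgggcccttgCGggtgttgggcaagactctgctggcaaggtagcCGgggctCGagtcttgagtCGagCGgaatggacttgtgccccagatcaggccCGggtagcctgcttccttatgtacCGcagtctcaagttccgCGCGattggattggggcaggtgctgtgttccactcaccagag
4F-iPSCs above C-iPSCs, chr9:95269332-95269631: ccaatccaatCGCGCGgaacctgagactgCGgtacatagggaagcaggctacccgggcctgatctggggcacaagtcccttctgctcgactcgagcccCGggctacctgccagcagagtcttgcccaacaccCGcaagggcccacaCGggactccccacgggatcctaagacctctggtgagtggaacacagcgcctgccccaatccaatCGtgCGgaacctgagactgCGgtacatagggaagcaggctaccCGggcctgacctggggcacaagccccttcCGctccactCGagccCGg
4F-iPSCs below mESCs, chr3:16994985-16995116: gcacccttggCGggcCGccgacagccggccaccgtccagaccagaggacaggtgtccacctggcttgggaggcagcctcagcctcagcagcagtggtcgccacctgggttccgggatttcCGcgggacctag
low in all libraries, chr2:171543077-171543254: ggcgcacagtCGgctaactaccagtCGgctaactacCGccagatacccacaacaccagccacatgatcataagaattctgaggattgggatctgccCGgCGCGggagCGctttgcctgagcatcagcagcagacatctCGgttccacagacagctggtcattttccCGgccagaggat
high in all libraries, chr9:3948196-3948273: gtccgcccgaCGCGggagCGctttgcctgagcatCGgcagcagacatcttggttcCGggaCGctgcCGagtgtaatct

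The libraries held between 53694199 and 96534037 CpG reads each, and the median gene desert CpG had from 29 reads in mESC replicate 2 to 50 reads in 4F-iPSC replicate 1. At least 10 reads in every library were reached by 12264 of the 16257 gene desert CpGs (75.4%). The promoters of the pluripotency genes checked, Nanog, Pou5f1, Zfp42, Dppa3, Sox2, Esrrb and Tfcp2l1, had mean levels from 2.08% to 20.8% in the cell types where both libraries had a value, and no compared CpG lay at that of Tdgf1.

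The first question was how the 3 cell types differed in gene deserts. Gene desert CpGs were least methylated in mESCs, higher in C-iPSCs and highest in 4F-iPSCs. Their mean methylation level was 49.4% and 54.9% in the 2 mESC libraries, 63.1% and 70.6% in the 2 C-iPSC libraries, and 79.4% and 80.2% in the 2 4F-iPSC libraries. No library of one cell type overlapped with a library of another. The means were 52.2% ± 3.87 in mESCs, 66.8% ± 5.30 in the C-iPSCs and 79.8% ± 0.604 in the 4F-iPSCs (SD, n = 2). C-iPSCs were thus 14.6 percentage points above mESCs, 4F-iPSCs 27.6 points above mESCs and 13.0 points above C-iPSCs (p = 0.3333 for each, two-sided exact permutation test over libraries, the smallest p that 2 libraries against 2 can give). The closest libraries of mESCs and C-iPSCs lay 8.17 points apart, and those of mESCs and 4F-iPSCs 24.4 points.

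**Figure D1:**
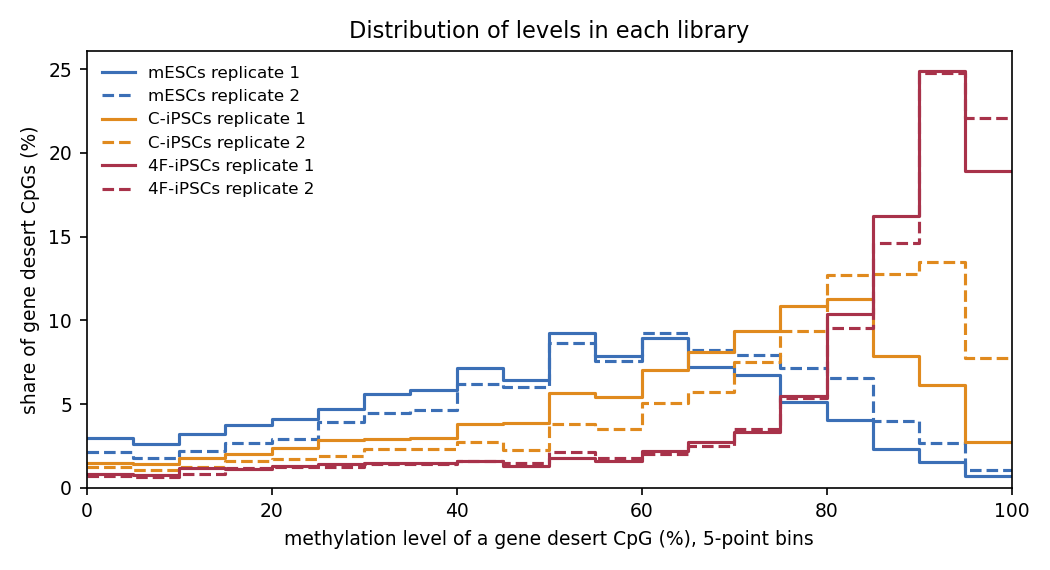
Share of gene desert CpGs (y axis, %) in bins of 5 percentage points of methylation level (x axis, %) in each library, for CpGs with at least 10 reads in that library; solid and dashed lines are replicates 1 and 2. The mESC libraries spread over the whole range, whereas both 4F-iPSC libraries pile up above 80%.

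The 3 cell types differed in the shape of the distribution as well as in its mean. Counting both libraries together, 71.8% of gene desert CpGs in mESCs had an intermediate level (from 30% to under 80%), 19.1% a low level and 9.11% a high level (80% or more). In C-iPSCs 54.0% were intermediate, 10.5% low and 35.4% high. In 4F-iPSCs only 22.7% were intermediate, 6.78% were low and 70.5% were high. The share of high CpGs in single libraries was 8.53% and 14.2% in mESCs, 28.0% and 46.7% in the C-iPSCs and 70.4% and 70.98% in the 4F-iPSCs, with no overlap between cell types (p = 0.3333 for each pair, exact permutation test). A bulk level does not tell whether it comes from differing cells or differing alleles.

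Most intermediate CpGs of mESCs were high in 4F-iPSCs, but most low ones were not. Of the CpGs that were intermediate in mESCs, 9548 (81.8%) were high in 4F-iPSCs. Of the 3102 that were low in mESCs, 467 (15.1%) were high in 4F-iPSCs, 1651 (53.2%) were intermediate and 984 (31.7%) stayed low. The commonest path ran from intermediate in mESCs and C-iPSCs to high in 4F-iPSCs (5259 CpGs, 32.3%), followed by intermediate in mESCs and high in both iPSC types (4283 CpGs, 26.3%). To keep the grouping apart from the comparison, CpGs were also binned by mESC replicate 1 alone. Those between 30% and 50% in that library (3117 CpGs) averaged 48.8% in mESC replicate 2, 58.2% and 67.6% in the C-iPSC libraries, and 78.9% and 79.9% in the 4F-iPSC libraries. Those under 10% in that library (588 CpGs) averaged 10.3% in mESC replicate 2 and still 33.4% and 31.9% in the 4F-iPSC libraries.

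Single CpGs were then tested on the reads summed over replicates, with Fisher's exact test at an unadjusted p under 0.05 and a difference of more than 33.3 percentage points (a strong call). In 4F-iPSCs against mESCs, 5878 gene desert CpGs (36.2%) were called higher and 23 lower, where 14.3% of all compared CpGs were called higher and 0.0333% lower. In C-iPSCs against mESCs, 1278 (7.86%) were called higher and 26 lower, beside 2.9% and 0.0374% of all compared CpGs. In 4F-iPSCs against C-iPSCs, 828 (5.09%) were called higher and 10 lower, beside 1.35% and 0.0285%. Calls higher in C-iPSCs rose to 12.2% without mESC replicate 2 and to 13.9% without C-iPSC replicate 1, and those of 4F-iPSCs over C-iPSCs to 10.8% without C-iPSC replicate 2. The called CpGs of 4F-iPSCs had a median level of 87.9% against 42.3% in mESCs. Of the 1278 calls in C-iPSCs, 1206 were also among the 5878 calls in 4F-iPSCs. That is 94.4% of the first list and 20.5% of the second, and both lists share the mESC libraries. Over all its CpGs the paper also reports most strongly hypermethylated sites as common to both iPSC types. By its counts that holds for the C-iPSC list and not for the 4F-iPSC list. The overlap is thus not read as particular to gene deserts.

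Summed reads ignore the spread between replicates, so the counts of each library were also fitted as replicates in a quasi-binomial model over all compared CpGs, with Benjamini-Hochberg adjusted p under 0.05 and the same difference. In this fit 5261 gene desert CpGs (32.4% of those tested) were called higher and 10 lower in 4F-iPSCs than in mESCs, where 13.1% of all tested CpGs were called higher and 0.025% lower. The calls fell to 436 higher (2.68%) and 4 lower in C-iPSCs against mESCs, beside 1.49% and 0.0113% of all tested CpGs. They fell to 445 higher (2.74%) and 2 lower in 4F-iPSCs against C-iPSCs, beside 0.614% and 0.0142%. The 2 C-iPSC libraries differed most from each other: replicate 2 was the higher one at 77.7% of gene desert CpGs, by a median of 7.54 points, against 65.6% in mESCs and 53.3% in 4F-iPSCs. Between replicates of one cell type, 238 of 13079 gene desert CpGs (1.82%) met the strong call in mESCs. The counts were 286 of 13582 (2.11%) in C-iPSCs and 61 of 14642 (0.417%) in 4F-iPSCs. No share over all compared CpGs is given beside these, so they are not read as particular to gene deserts.

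Libraries were also compared CpG by CpG where each had at least 10 reads. Both 4F-iPSC libraries lay above both mESC libraries at 11055 of 12264 gene desert CpGs (90.1%, beside 44.7% of all such CpGs) and below them at 141 (1.15%, beside 2.62%). Both C-iPSC libraries lay above both mESC libraries at 63.6% (beside 32.7%) and below at 2.48% (beside 4.26%). Both 4F-iPSC libraries lay above both C-iPSC libraries at 66.01% (beside 31.3%) and below at 1.64% (beside 3.54%). The mean level of all compared autosomal CpGs was 21.04% in mESCs and 33.0% in 4F-iPSCs.

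The next question was whether gene desert CpGs differed from intergenic CpGs nearer to genes, measured in the same libraries. For this, 171633 intergenic CpGs from 1 kb to 100 kb from a start, with the same limits on reads and local density, served as the comparison. Gene desert CpGs were the more methylated group in every library. The difference was 6.56 and 7.38 points in the mESC libraries, 7.85 and 6.79 in the C-iPSC libraries, and 9.80 and 9.68 in the 4F-iPSC libraries. It averaged 8.01 points (SD 1.41, 6 of 6 libraries, p = 0.03125, two-sided exact sign flip test over libraries, the smallest p that 6 libraries can give). The gap was 2.77 points wider in 4F-iPSCs than in mESCs, more than the spread between libraries, with p = 0.3333 (exact permutation test). The gap in C-iPSCs exceeded that in mESCs by 0.354 points, with overlapping libraries (p = 0.667, exact permutation test).

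CpGs equally far from a start but inside genes had like levels on average. The 5598 CpGs inside gene spans but more than 100 kb from any start had means of 51.4% in mESCs, 67.9% in the C-iPSCs and 79.3% in the 4F-iPSCs. Gene desert CpGs minus these CpGs came to 0.0854 points (SD 1.00, higher in 4 of 6 libraries, p = 0.875, exact sign flip test), with single libraries between -1.77 and 0.938 points. Both C-iPSC libraries were negative (-0.293 and -1.77), and the mESC and 4F-iPSC libraries were positive. The value in C-iPSCs minus that in mESCs was -1.82 points, without overlap of libraries (p = 0.3333, exact permutation test). Within the deserts the level had no steady trend with further distance up to 500 kb: in 4F-iPSCs it was 78.9% at 100 to 150 kb, 82.6% at 150 to 200 kb, 79.4% at 200 to 300 kb and 79.0% at 300 to 500 kb. The 76 CpGs over 500 kb from a start had 47.6% and 55.05% in the mESC libraries, 61.8% and 64.5% in the C-iPSC libraries, and 72.6% and 76.9% in the 4F-iPSC libraries. Both 4F-iPSC libraries were below their values in each nearer class, which did not hold for both libraries of mESCs or C-iPSCs. Just outside the limit, at 90 to 100 kb, the 3 cell types averaged 50.7%, 65.5% and 77.7%, and just inside it, at 100 to 110 kb, 51.0%, 65.0% and 77.1%. Strong calls of 4F-iPSCs over mESCs came to 36.4% of the CpGs deep inside genes and 31.2% of nearer intergenic CpGs, beside 36.2% in deserts. Those of C-iPSCs over mESCs came to 7.36% and 6.67%, beside 7.86%. Those of 4F-iPSCs over C-iPSCs came to 3.38% and 3.16%, beside 5.09%.

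**Figure D2:**
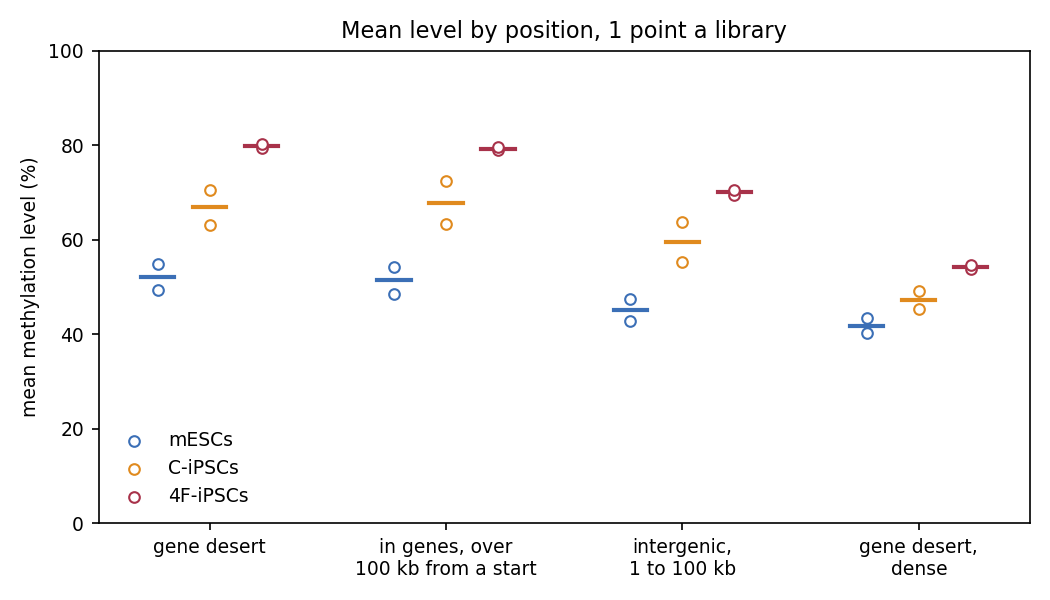
Mean methylation level (y axis, %) of CpGs in 4 kinds of position (x axis); each circle is a library and each bar the mean of the 2 libraries of a cell type. Gene desert CpGs and CpGs deep inside genes sit at like levels, nearer intergenic CpGs are 8.01 points lower on average, and the dense gene desert CpGs are lowest.

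The gap to nearer intergenic CpGs was wider outside annotated repeats than inside them. Soft-masked bases, written in lower case in the reference by repeat-finding programs, held 68.9% of gene desert CpGs and 40.8% of the nearer intergenic ones. Outside soft-masked sequence gene desert CpGs were 13.2 points above nearer intergenic CpGs, and inside it 1.07 points above (each in 6 of 6 libraries). The difference between the gaps was 12.1 points and was seen in 6 of 6 libraries (p = 0.03125, exact sign flip test). Nearer intergenic CpGs were 10.5 points higher inside soft-masked sequence than outside it, whereas in the deserts soft-masked CpGs were 1.66 points lower than the others (4 of 6 libraries, p = 0.125, exact sign flip test). In deserts, CpGs outside soft-masked sequence had mean levels of 51.9%, 69.0% and 81.2% in the 3 cell types (mESCs first), against 52.3%, 65.8% and 79.1% inside it.

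The level also varied with local CpG density. It fell step by step from CpGs with no other compared CpG within 100 bp to those with 7 to 9. In 4F-iPSCs it was 87.4%, 83.8%, 80.6%, 77.6%, 73.7% and 67.6% at 0, 1, 2, 3 to 4, 5 to 6 and 7 to 9 others. In mESCs the same steps ran from 58.5% to 47.5%, and in C-iPSCs from 75.5% to 56.3%. From the first class (3060 CpGs) to the last (1209 CpGs) the level dropped by 16.6 points on average over the libraries, by 9.89 in the library with the smallest fall and by 22.1 in that with the largest. Nearer intergenic CpGs dropped by 30.6 points over the same classes, a steeper fall in 6 of 6 libraries (p = 0.03125, exact sign flip test). Gene desert CpGs were therefore 4.57 points above nearer intergenic CpGs with no neighbor and 18.6 points above them with 7 to 9.

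**Figure D3:**
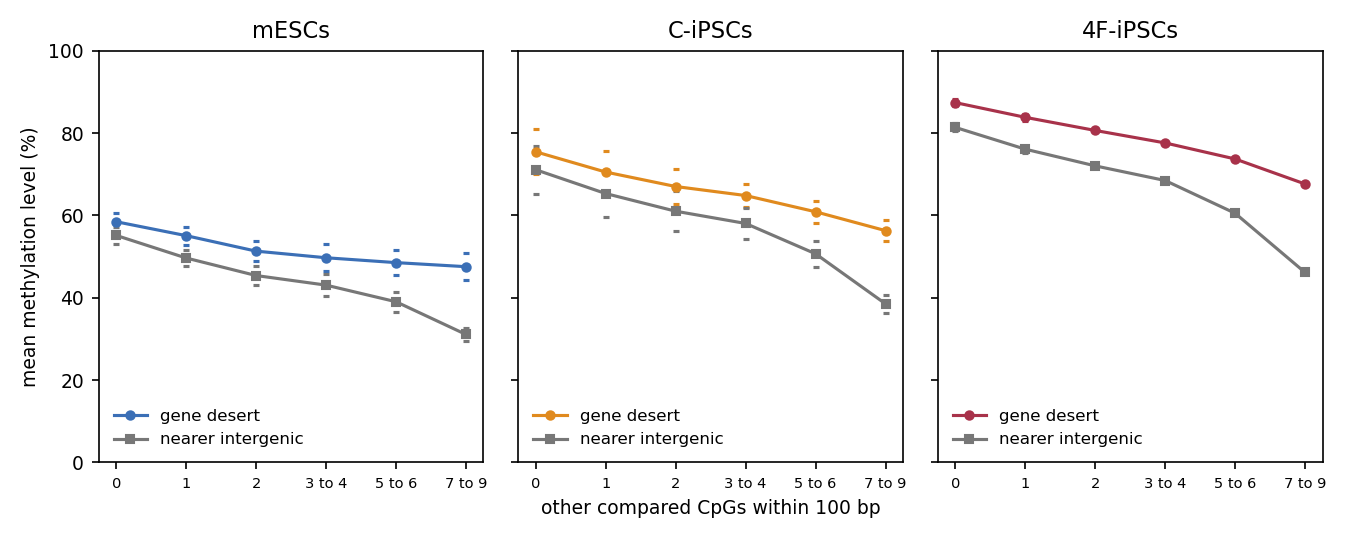
Mean methylation level (y axis, %) by the number of other compared CpGs within 100 bp (x axis) in the 3 cell types; points are means of 2 libraries and short bars the single libraries. Gene desert CpGs (colored) lose less with density than nearer intergenic CpGs (grey), so the lines part to the right.

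The limit of 10 neighbors left out 419 dense gene desert CpGs, which averaged 41.8% in mESCs, 47.2% in the C-iPSCs and 54.3% in the 4F-iPSCs. At the limit itself, CpGs with 9 others had 47.1%, 54.8% and 63.95% in the 3 cell types, and those with 10 others had 45.9%, 52.0% and 58.7%. In 4F-iPSCs the libraries of these neighboring classes did not overlap, with 64.1% and 63.8% against 58.8% and 58.6%. The place of a CpG in its fragment moved with density too. CpGs within an MspI site (CCGG, the same on both strands) made up 8455 of the members and were 13.1 points more methylated than the others (6 of 6 libraries, p = 0.03125, exact sign flip test). Among CpGs outside CCGG the level in mESCs did not fall with density, at 43.0% with 0 to 1, 44.5% with 2 to 4 and 45.5% with 5 to 9 others, while in 4F-iPSCs it was 75.04%, 75.6% and 70.5%. Among CpGs in CCGG it was 59.2%, 59.4% and 56.8% in mESCs and 87.6%, 83.9% and 74.7% in 4F-iPSCs. The part of the cut site in the density trend was not tested further.

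Copies of repeated sequences differed widely within the deserts. Members were compared by the 30 bases centred on their CpG, read on either strand. For 10549 CpGs (64.9%) this sequence was unlike that of any other member, and 3197 CpGs (19.7%) fell into 121 families of at least 10 members with identical bases, all in soft-masked sequence. The families lay at widely different levels, from 7.46% to 87.3% in mESCs and from 18.7% to 96.4% in 4F-iPSCs. Measured levels of the copies of one family had a median SD of 13.2 points in mESCs and 9.34 in 4F-iPSCs. This SD includes counting error, which was not separated out. Families whose members lay within 300 bp of each other at 5 or more places were joined into repeat groups, of which the 4 largest are described. Examples of each are shown here to make the groups recognizable, with the shared CpG in capitals.
family 1, repeat group 1: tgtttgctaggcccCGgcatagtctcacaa
family 4, repeat group 2: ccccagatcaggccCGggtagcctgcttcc
family 21, repeat group 2: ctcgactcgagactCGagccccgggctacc
family 8, repeat group 3: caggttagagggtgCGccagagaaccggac
family 16, repeat group 4: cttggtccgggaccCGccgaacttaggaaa

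Repeat group 1 (9 families, 837 CpGs in 430 deserts) had higher levels than all gene desert CpGs in each cell type. Its mean was 60.9% ± 2.77 in mESCs, 77.8% ± 7.10 in the C-iPSCs and 89.4% ± 0.898 in the 4F-iPSCs (SD, n = 2). Family 1, its largest, counted 327 members in 244 deserts on all 19 autosomes, had 17711 exact copies in the autosomal reference, and stood at 61.7% and 67.2% in the mESC, 76.4% and 86.5% in the C-iPSC and 90.2% and 91.8% in the 4F-iPSC libraries. Of the CpGs of repeat group 1, 96.1% were in CCGG, and gene desert CpGs in CCGG with 0 to 1 others had means of 59.2%, 75.1% and 87.6% in the 3 cell types. The smaller family 22 of the group, not in CCGG, was much lower, with 23.2%, 31.9% and 60.6%. Of the group, 30.7% was called higher in 4F-iPSCs than in mESCs, beside 36.2% of all gene desert CpGs and 14.3% of all compared CpGs. The median depth summed over the 6 libraries was between 96 and 126 reads in the 4 groups and 290 reads for members in no family, and its part in these shares was not tested.

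Repeat group 2 (31 families, 819 CpGs in 182 deserts) showed the widest differences from mESCs of the 4 groups. Its level was 44.8% and 50.1% in the mESC libraries, 75.5% and 75.02% in the C-iPSC libraries, and 89.9% and 90.01% in the 4F-iPSC libraries. It was thus 27.8 points higher in C-iPSCs than in mESCs and 42.5 points higher in 4F-iPSCs, against 14.6 and 27.6 points for all gene desert CpGs. Strong calls higher than mESCs were made for 69.8% of its CpGs in 4F-iPSCs, beside 36.2% of all gene desert CpGs and 14.3% of all compared CpGs. In C-iPSCs they were made for 37.7%, beside 7.86% and 2.9%. Its level in 4F-iPSCs was 14.7 points above that in C-iPSCs, against 13.0 points for all gene desert CpGs, and 4.88% of the group was called higher in this comparison, beside 5.09% and 1.35%. Family 21 went furthest among families of 20 or more members, from 29.5% ± 3.92 in mESCs to 73.6% ± 2.41 in the C-iPSCs and 89.1% ± 0.524 in the 4F-iPSCs. Of its 34 members, 11 and 16 had at least 10 reads in the mESC libraries. In the libraries of each iPSC type 25 and 28 had them, so these means do not average the same copies. Copies of one family in this group recurred close together, most often 208 bp apart (22 of 40 pairs within 300 bp). The first of the long sequences above shows the 30 bases of family 4 once in full.

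Repeat groups 3 and 4 stayed far below the other gene desert CpGs in every library. Group 3 (25 families, 631 CpGs in 143 deserts) had 31.4% and 32.4% in the mESC, 31.7% and 37.8% in the C-iPSC, and 39.5% and 44.6% in the 4F-iPSC libraries, so that C-iPSC and mESC libraries overlapped. Group 4 (11 families, 305 CpGs in 77 deserts) had 14.1% and 17.2%, 21.4% and 23.8%, and 33.6% and 33.9%, and its family 16 averaged 7.69% in mESCs and 27.2% in 4F-iPSCs. Higher calls in 4F-iPSCs against mESCs were made for 8.56% of group 3 and 6.56% of group 4, both under the 14.3% of all compared CpGs. Their copies recurred most often 214 bp apart in group 3 (21 of 24 pairs) and 212 bp apart in group 4 (20 of 23 pairs). Members had on average 0.280 other compared CpGs within 100 bp in group 1, 3.796 in group 2, 4.86 in group 3 and 3.59 in group 4. The share in CCGG was 96.1% in group 1, 26.6% in group 2, 26.5% in group 3 and 11.5% in group 4. Group 1 thus stood apart from the other groups in both, and their part in the levels was not tested. Over all 121 families both 4F-iPSC libraries lay above both mESC libraries in 114 and below in none. As the families were examined with levels in view, these contrasts are given without a test.

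**Figure D4:**
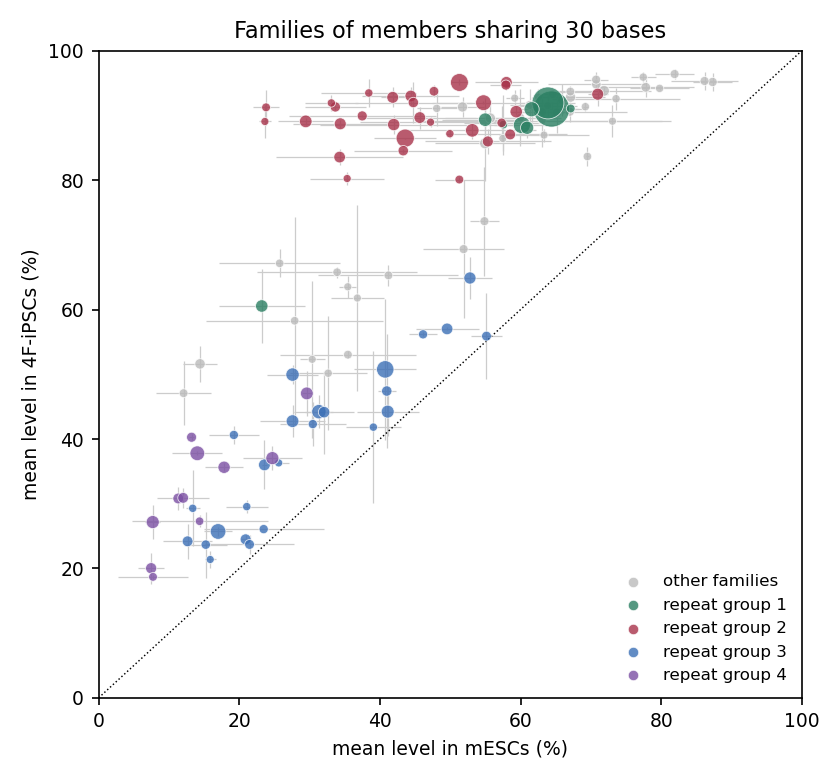
Mean methylation level in mESCs (x axis, %) and in 4F-iPSCs (y axis, %) of the 121 families of gene desert CpGs that share 30 bases; the area of a point grows with the number of members, lines are the SD of 2 libraries and the dotted line marks equal levels. Repeat group 2 and all but 1 family of group 1 lie between 80.1% and 95.1% in 4F-iPSCs, while groups 3 and 4 reach at most 64.9% and 47.0%.

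Copies of the same sequence were then compared between deserts and nearer intergenic positions, a comparison chosen after the data were seen. The same 121 families had 14620 copies among the nearer intergenic CpGs. Desert copies minus nearer copies of the same 30 bases, averaged over families, came to -0.460 and -0.665 points in the mESC libraries, -0.279 and -0.477 in the C-iPSC libraries, and 0.479 and 0.381 in the 4F-iPSC libraries. The mean was -0.170 points (SD 0.482, higher in deserts in 2 of 6 libraries, p = 0.438, exact sign flip test), beside 1.07 points over all soft-masked CpGs. Only read pairs with a single best position were kept upstream, so copies without a distinguishing base nearby are not among those measured.

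Runs of at least 3 neighboring gene desert CpGs, at most 300 bp apart and called in one direction, were then collected. There were 680 runs higher in 4F-iPSCs than in mESCs, holding 2982 CpGs in 425 deserts, and 96 runs higher in C-iPSCs than in mESCs, holding 490 CpGs in 87 deserts. Against C-iPSCs, 4F-iPSCs had 36 higher runs, and against mESCs they had 2 lower runs. No run counts over all compared CpGs are given, so these numbers are not read as particular to gene deserts. These counts rest on single libraries in part: without mESC replicate 1 the first 2 were 405 and 43, without C-iPSC replicate 2 the third was 77, and without 4F-iPSC replicate 1 no lower run was left. No run was lower in C-iPSCs than in mESCs or lower in 4F-iPSCs than in C-iPSCs, where single CpGs called lower numbered 26 and 10. The 5 leading runs of each of these comparisons with mESCs, which lie partly at the same places, each held between 3 and 13 CpGs of repeat group 2. Levels of a run are means over its gene desert CpGs with any read in a library, and the nearest protein-coding gene is given for orientation only.

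The longest run, 20 CpGs higher in 4F-iPSCs than in mESCs, lay at chr1:114134292-114134857, 1550 kb from the start of Cntnap5a, which encodes a neuronal surface protein of the contactin-associated family. It stood at 42.6% and 46.3% in mESCs, 70.3% and 70.7% in the C-iPSCs and 94.3% and 87.8% in the 4F-iPSCs. The leading run in C-iPSCs (15 CpGs, chr1:102605207-102605745, nearest gene the cadherin gene Cdh20) rose from 30.5% and 30.0% in mESCs to 83.8% and 70.5% in the C-iPSCs and 94.98% and 88.9% in the 4F-iPSCs. The next in C-iPSCs, with 14 CpGs each, were at chr13:47527602-47528272 near Rnf144b and at chr4:23113560-23113977 near Pou3f2, which encodes a neural transcription factor. They had 24.1% and 27.7%, and 26.8% and 32.1%, in mESCs, and 77.5% and 73.1%, and 81.9% and 76.2%, in C-iPSCs. The other named runs of these comparisons, near Sult1c1, Cdh11, Mtpn and Ndufa4, moved in the same order, with 32.8% to 45.7% in mESC libraries, 66.002% to 86.7% in C-iPSC libraries and 88.8% to 95.7% in 4F-iPSC libraries.

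Runs that set 4F-iPSCs apart from C-iPSCs had at most 9 called CpGs, fewer than the longest runs above mESCs. The leading one, at chr9:95269063-95269630 with Chst2 nearest (137 kb), had 9 called CpGs and means of 41.1% and 42.1% in mESCs, 52.8% and 53.3% in the C-iPSCs and 80.8% and 82.1% in the 4F-iPSCs. The run at chr4:10165416-10165568, nearest to Gdf6, a growth factor gene of the BMP family, had 17.8% and 18.3% in mESCs, 41.6% and 42.4% in the C-iPSCs and 84.8% and 84.6% in the 4F-iPSCs. The others, near Pcdh17, Ntrk3 and Zpld1, lay between 37.0% and 62.4% in C-iPSC libraries and between 73.0% and 89.0% in 4F-iPSC libraries. In the opposite direction, the run at chr3:16994995-16995106 near Ythdf3, which encodes a reader of methylated RNA, fell from 66.1% and 69.3% in mESCs to 32.9% and 37.5% in the C-iPSCs and 15.6% and 23.9% in the 4F-iPSCs. The other lower run, at chr6:143781366-143781383 near Etnk1, had 52.0% and 65.5% in mESCs, 64.7% and 58.0% in the C-iPSCs and 33.3% and 25.7% in the 4F-iPSCs. It rests on few reads: summed over its 5 CpGs within 18 bp, 27 and 107, 48 and 23, and 57 and 35 in the same order.

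A minority of gene desert CpGs kept one state throughout. Under 30% in all 6 libraries were 608 CpGs (3.74%), and at 80% or more in all 6 were 769 (4.73%). The same shares over all compared CpGs are not given. These counts, and the runs formed from them, are therefore not read as particular to gene deserts. The low ones had more CpGs around them in the reference (9.19 on average within 100 bp) than the high ones (6.63) and all members (5.70). The share in CCGG was 15.3% of the low ones, 62.4% of the high ones and 52.0% of all members. Low CpGs formed 58 runs and high ones 36. The longest low run (9 CpGs, chr2:171543087-171543244, 500 kb from the start of Cbln4, a synaptic organizer gene) ranged from 4.18% to 9.34% over the libraries. The low runs at chr4:124178563-124178907 and chr6:51168791-51169088 (7 CpGs each) contained no soft-masked CpG and ranged from 1.59% to 4.40% and from 5.56% to 7.002%, just 100.3 and 100.8 kb from the nearest annotated start. A low run near Ywhaq, also without a soft-masked CpG, ranged from 0% to 3.70%, and one near Sel1l from 5.54% to 13.3%. The leading high run (7 CpGs, chr9:3948206-3948263, near Aasdhppt) ranged from 90.4% to 96.0%, and those near Abca13, Tox, 4930452B06Rik and Gm597 from 86.7% to 98.3%.

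The order of the cell types held on every chromosome. On all 19 autosomes both C-iPSC libraries were above both mESC libraries and below both 4F-iPSC libraries. Chromosome 1 had the most gene desert CpGs (1789) and chromosome 19 the fewest (263). In mESCs the highest mean was on chromosome 14 (53.3% and 58.7%) and the lowest on chromosome 7 (44.9% and 49.8%). In C-iPSCs the highest was on chromosome 17 (65.8% and 74.3%) and the lowest on chromosome 2 (57.6% and 65.7%). In 4F-iPSCs the highest was again chromosome 14 (83.5% and 84.5%), and the lowest chromosome 18 (74.1% and 74.7%), close to chromosome 2 (74.7% and 75.5%). The range over chromosomes was 8.23 to 9.82 points within a library. The difference between 4F-iPSCs and mESCs went from 23.6 points on chromosome 18 to 31.4 points on chromosome 7, which held 381 gene desert CpGs, 43.3% of them soft-masked.

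Chromosomes kept much of their order between libraries. Over the 19 chromosomes, means of replicates correlated with Pearson's r of 0.920 for mESCs, 0.874 for C-iPSCs and 0.969 for 4F-iPSCs, and the means of 4F-iPSCs and mESCs with 0.706. These points share CpGs, base composition and read depth. The mean local density of a chromosome's members was only weakly related to their level (r from -0.295 to 0.127 in the 3 cell types), and so was the level of gene desert CpGs to that of the nearer intergenic CpGs of the same chromosome (r from -0.0376 to 0.151, Spearman's rho from 0.118 to 0.402, with the highest in mESCs).

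**Figure D5:**
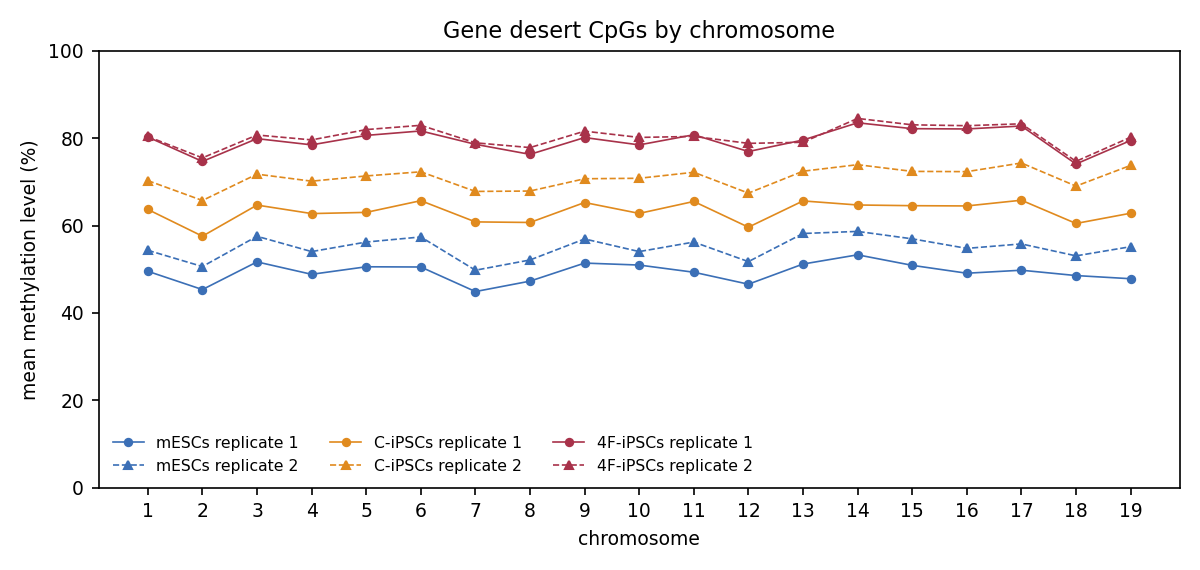
Mean methylation level of gene desert CpGs (y axis, %) on each autosome (x axis) in each library; solid lines with circles are replicate 1 and dashed lines with triangles replicate 2. The 3 cell types form separate bands on every chromosome, and the chromosomes with lower levels, such as 2 and 12, dip in all libraries.

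Means of single deserts rest on far fewer CpGs than those of chromosomes, so their spreads are not compared. Among 530 deserts with at least 10 gene desert CpGs and a value in each library, desert means ran from 9.11% to 79.97% in mESCs (median 52.8%), from 17.0% to 92.0% in C-iPSCs (median 68.7%) and from 23.0% to 95.3% in 4F-iPSCs (median 83.9%). Both 4F-iPSC libraries were above both mESC libraries in 519 of them (97.9%) and below in none. Both C-iPSC libraries were above both mESC libraries in 484 (91.3%) and below in 5. The desert with the most members (148, chr1:114064135-115119762, between Dsel and Cntnap5a) had 42.3% and 47.2% in mESCs, 56.7% and 59.5% in the C-iPSCs and 73.2% and 76.3% in the 4F-iPSCs. The desert on chromosome 3 between 9130204L05Rik and Pglyrp3 (104 members) was higher in every library, with 64.7% and 69.4%, 72.8% and 80.3%, and 89.0% and 89.4%. That between Dok5 and Cbln4 (107 members) was lower, with 37.7% and 43.9%, 51.5% and 60.5%, and 65.4% and 65.8%. The other named deserts, between Cobl and Pom121l12 (121 members) and between Nxph1 and Ndufa4 (108), lay between these in 4F-iPSCs, at 77.6% to 82.3%.

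At the extremes, chosen here for their difference and so given as a description, the desert between Pou3f2 and Mms22l (18 members, all soft-masked) went from 31.9% and 36.4% in mESCs to 80.4% and 77.0% in the C-iPSCs and 92.9% and 92.2% in the 4F-iPSCs. The desert between Kcnj3 and Nr4a2 (24 members, all soft-masked) had 27.0% and 26.8%, 25.6% and 25.1%, and 24.9% and 28.9%, so that the 4F-iPSC libraries overlapped with those of both other cell types and the C-iPSC libraries lay just below the mESC libraries. The deserts with the lowest differences were those between Agtr1b and Tbl1xr1 (12 members), with 26.7% and 28.9%, 14.3% and 19.8%, and 17.8% and 30.9%, and between Epha5 and Cenpc1 (12 members), with 28.4% and 37.5%, 27.3% and 25.7%, and 31.3% and 29.9%. In both, the C-iPSC libraries were below the mESC libraries, while the 4F-iPSC libraries overlapped with them. The largest difference, between Sall3 and Galr1 (10 members, 10% soft-masked), ran from 8.09% and 10.1% in mESCs to 69.2% and 69.1% in 4F-iPSCs, and its C-iPSC libraries lay far apart at 42.2% and 82.9%.

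Neighboring gene desert CpGs had like levels only over short distances. Consecutive members under 20 bp apart correlated with r of 0.681 for mESCs, 0.740 for C-iPSCs and 0.850 for 4F-iPSCs (4803 pairs, which often share reads). At 100 to 1000 bp r was 0.416, 0.482 and 0.622 (1984 pairs), and at 1 to 10 kb it was 0.133, 0.0990 and 0.112 (1155 pairs). At 10 to 100 kb it was between 0.00679 and 0.0145 (2222 pairs).

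Gene desert CpGs were also grouped by the nearest protein-coding gene, with a list of developmental regulators and a list of neuronal adhesion and synapse genes, both of which often border deserts. Of 95 developmental regulators 38 were nearest to a member. Their 806 CpGs had 43.6% and 49.3% in mESCs, 59.1% and 67.1% in the C-iPSCs and 74.4% and 75.02% in the 4F-iPSCs, below the 13539 CpGs near genes of neither list in every library (49.7% and 55.2%, 63.2% and 70.8%, 79.3% and 80.2%). CpGs near Tfap2c, a transcription factor gene of germ cells and trophoblast, were low (23.6% and 24.1% in mESCs, 54.9% and 56.7% in 4F-iPSCs, 53 CpGs), and those near Sox9, a regulator of cartilage and testis development, were not (51.9% and 59.0%, 81.9% and 82.1%, 98 CpGs). Of 69 adhesion and synapse genes 47 were nearest to a member, and their 1912 CpGs had 50.5% and 55.3%, 63.8% and 70.4%, and 81.8% and 82.5%. The lists differed in repeats as well, with 38.8% and 81.2% of CpGs in soft-masked sequence. Strong calls in 4F-iPSCs against mESCs came to 36.1% of the CpGs near developmental regulators, 39.9% near adhesion and synapse genes and 35.6% near other genes, all near the 36.2% of all gene desert CpGs and above the 14.3% of all compared CpGs. Calls higher in 4F-iPSCs against C-iPSCs came to 2.36%, 6.96% and 4.99% in the same order, beside 5.09% of all gene desert CpGs and 1.35% of all compared CpGs. In C-iPSCs against mESCs they came to 9.31%, 9.05% and 7.61%, beside 7.86% and 2.9%.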

How the data were processed

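RRBS was done on 2 libraries each of mESCs, C-iPSCs and 4F-iPSCs. The authors digested DNA with MspI, selected fragments by size, sequenced read pairs and called CpG levels with MOABS after alignment by BSMAP 2.90 (version from the submitters' processing notes) to the mm10 genome, using only pairs with 1 best position. The deposited files give for each CpG total and methylated read counts and a methylation fraction, and all counts were used as deposited. Fractions recomputed from the counts differed from the deposited fractions by at most 0.0005.

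Starts and gene spans came from the comprehensive GENCODE mouse release 21 annotation of GRCm38, soft-masking and sequences from the RefSeq copy of that build. A level is methylated over total reads. Library means average CpGs with at least 10 reads in that library, while shares by class and strong calls used the summed reads. Single values were compared between cell types with two-sided exact permutation tests, and within libraries with exact sign flip tests (SciPy 1.17.1). Fisher's exact test was run on all 1106981 compared CpGs, and the quasi-binomial model used limma 3.58.1 to shrink the dispersions. Both were tested on simulated data. Alternatives tried were other read minimums, distances, annotations, tests and call limits, no limit on density, CpGs outside soft-masked sequence, and each library left out. Runs, chromosomes, deserts and lists were named by a rule: the 5 leading runs of each kind, the 5 deserts with the most members, and the highest and lowest chromosome of each cell type. Desert extremes, sequence families and named list genes were picked after their values were seen. The members and lists were chosen with earlier results of these data known. Reads of one fragment were not separated by molecular identifiers, so counting error is understated. Incomplete bisulfite conversion would raise levels, and no conversion rate was used here.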

Additional observations from a re-analysis of the deposited data

How the results depend on the processing

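Of 393 values recomputed under other settings, 309 kept their direction, their side of the threshold and their size within the limits set, and 2 turned their sign. The gap between gene desert and nearer intergenic CpGs lay between 7.21 and 8.08 points with starts over 200 kb away, with nearer CpGs weighted by local density (7.85) and with the basic GENCODE annotation, the last chosen after seeing the data. Without a library it was 7.75 to 8.66 points, where 5 libraries allow no exact sign flip p under 0.0625. Its excess in 4F-iPSCs over mESCs was 3.73 points with no limit on local density, 4.87 outside soft-masked sequence, 3.23 with protein-coding genes only and 2.65 to 3.29 without a library. Its excess in 4F-iPSCs over C-iPSCs was 3.32 over 200 kb from a start. Its excess in C-iPSCs over mESCs was 2.32 outside soft-masked sequence, 1.18 with protein-coding genes only, -0.751 over 200 kb from a start, and -0.137 (without C-iPSC replicate 1) to 0.804 without a library; the cause was not tested.

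The share of high CpGs in 4F-iPSCs was 71.7% at 30 summed reads or more, 69.6% at 5 or more, 69.8% with no density limit, 72.6% outside soft-masked sequence, 69.98% over 200 kb from a start, 67.5% with protein-coding genes only and 70.2% to 71.1% without a library. The low share was 5.34%, 7.17%, 6.86% and 4.80% under the first 4 of these and 8.32% with protein-coding genes only, and in C-iPSCs 7.38% outside soft-masked sequence. The difference between 4F-iPSCs and C-iPSCs was 9.11 points without C-iPSC replicate 1 and 16.8 without C-iPSC replicate 2. A difference over 0.5 left strong higher calls at 1.44% of members for C-iPSCs over mESCs, 8.93% for 4F-iPSCs over mESCs and 0.523% for 4F-iPSCs over C-iPSCs, and the quasi-binomial model 2.68% and 2.74% in the first and last.

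The few lower calls moved as well. In C-iPSCs against mESCs they were 0.0738% with adjusted Fisher p, 0.0404% with 10 reads in each library, 0.0335% at 30 summed reads, 0.0123% over 0.5, 0.0198% outside soft-masked sequence, 0.0971% with protein-coding genes only and 0.0246% in the quasi-binomial model. In 4F-iPSCs against mESCs they were 0.0647%, 0.0669%, 0.0246%, 0.0198%, 0.0801% and 0.0615% in the same order from 10 reads on. In 4F-iPSCs against C-iPSCs they were 0.0369%, 0.0242%, 0.0335%, 0.00615% and 0.0198% from adjusted p to soft-masking, and 0.0123% in the model. Without a library, higher calls ranged from 5.33% to 13.9% in C-iPSCs against mESCs (12.2% without mESC replicate 2, highest without C-iPSC replicate 1) and from 4.04% to 10.8% in 4F-iPSCs against C-iPSCs (highest without C-iPSC replicate 2), and lower calls from 0.0646% to 0.199% and 0.0265% to 0.108%, with 0.0663% to 0.189% in 4F-iPSCs against mESCs.

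Runs of at least 5 CpGs numbered 41 in C-iPSCs and 199 in 4F-iPSCs above mESCs, 5 in 4F-iPSCs above C-iPSCs and 0 in 4F-iPSCs below mESCs. Without a library there were 43 to 132, 405 to 751, 24 to 77 and 0 to 3, and 0 to 1 in 4F-iPSCs below C-iPSCs, with the lowest counts above mESCs without mESC replicate 1 and the 77 without C-iPSC replicate 2. With a replicate block the 3 mean differences were 14.6, 27.6 and 13.0 points (p = 0.5, exact sign flip test, the smallest that 2 pairs allow), and calls were 8.08%, 36.3% and 5.14%. Deviations of same-numbered libraries correlated over CpGs with r of -0.112, -0.180 and 0.145. Such an r leaves out a shift common to all CpGs, and replicate 2 had the higher mean in each cell type. Whether the numbers pair the libraries is thus not settled. Depth limits single CpGs most in mESC replicate 2, with a median of 29 reads.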
